A study of Mus musculus with 6 samples.

Results

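Peaks of ERα, estrogen receptor alpha, were examined at 52 genes of neuropeptide signalling, 24 that encode peptide precursors and 28 that encode peptide receptors. The genes were taken from a fixed list of names, and all 52 were found among the 21887 protein-coding genes of the RefSeq table. A peak was assigned to a gene when it touched the gene span, or when it lay within 100 kb of the span and no other protein-coding gene was nearer. ERα was profiled by CUT&RUN, in which an antibody tethers a nuclease to chromatin in isolated nuclei and the released fragments are sequenced. Limbic brain tissue came from adult C57/BL6 male mice that had all been gonadectomized at 10 to 12 weeks of age, in both groups, so that gonadal hormone was removed from the controls as well. Nuclei were isolated 4 hours after a subcutaneous dose of estradiol benzoate (5 µg) or corn oil vehicle, given 3 weeks after surgery. There were 3 libraries of each treatment. It is not stated in the labels that replicate libraries came from different animals, so p-values rest on a spread between libraries that may be technical.

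Neuropeptides are cut from larger precursors, stored in dense-core granules and released to act on receptors that mostly couple to G proteins. In the hypothalamus and amygdala they control reproduction, feeding, stress and social behaviour, and several of their genes, among them those for kisspeptin, oxytocin receptor and galanin, are known to respond to estrogen. ERα binds DNA as a dimer at the estrogen response element (ERE), a palindrome of TGACC arms, and also reaches DNA through other factors. A CUT&RUN peak marks where the antibody recovered fragments and says nothing of the level of a gene's RNA, so the labelled tissue could not be checked against its marker genes. Limbic tissue is a mixture of cells, and fewer cells with ERα at a site and fewer bound receptors per cell cannot be told apart.

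The deposited lists held 5421 to 20541 peaks in the vehicle libraries and 11082 to 17558 in the estradiol libraries. The caller's q-value is given as −log10 q, where 2 is the listing threshold. Fragments at each summit, worked out from the listed fold and p-value, were at least 4 and had a median of 6 in each library, so most peaks are thin, and a gene without one may still be bound. Replicates 1 and 2 of both groups carry a different style of peak name and fuller labels than replicate 3 and are given apart where groups are compared. Fixed marker lists held an assigned peak in 4 of 4 neuronal, 5 of 5 oligodendrocyte, 3 of 5 astrocyte, 3 of 5 microglial and 3 of 4 endothelial genes, beside 61.7% of all protein-coding genes. The stretch in which a peak could be assigned had a median of 327 kb for the neuronal genes and 45.8 kb for all genes. For the oligodendrocyte, astrocyte, microglial and endothelial genes it was 48.2, 142, 35.9 and 87.55 kb.

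Peaks were found at 31 of the 52 genes in at least 1 library, against 61.7% of all protein-coding genes. They were 20 of the 28 receptor genes (71.4%) and 11 of the 24 peptide genes (45.8%), a difference that was not tested. Peptide genes are short, with a median span of 4.97 kb against 17.5 kb for the receptors, and the stretch within which a peak could be assigned to them had a median of 60.4 kb against 99.1 kb. Per 100 kb of that stretch, and averaged over the libraries, peptide genes held 0.413 and receptor genes 0.402 peaks, and all protein-coding genes 0.669. Among genes with a stretch of at least 100 kb, 15 of 20 listed genes (75%) and 76.9% of all genes held a peak. Among those with a shorter stretch the shares were 16 of 32 (50%) and 55.8%.

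The number of listed genes with a peak was 8, 16 and 16 in vehicle libraries 1, 2 and 3 and 9, 14 and 19 in estradiol libraries 1, 2 and 3. Both groups had their lowest value in replicate 1, and their ranges overlapped. The group values were 13.3 ± 4.62 for vehicle and 14.0 ± 5.00 for estradiol (SD, n = 3), a difference of 0.667 genes (two-sided exact permutation p = 0.9, adjusted p = 1 over 3 tests, where 0.1 is the smallest p the design allows). The estradiol value was lower by 0.5 genes within replicates 1 and 2 (difference -0.5) and higher by 3 in replicate 3, and without vehicle replicate 1 the difference was -2. Peptide genes with a peak numbered 3, 6 and 5 in the vehicle and 4, 4 and 7 in the estradiol libraries, and receptor genes 5, 10 and 11 against 5, 10 and 12 (exact permutation p = 1 for each). In each library the share of the listed genes with a peak was below that of all genes, from 15.4% against 20.1% in vehicle replicate 1 to 36.5% against 44.6% in estradiol replicate 3.

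**Figure D1:**
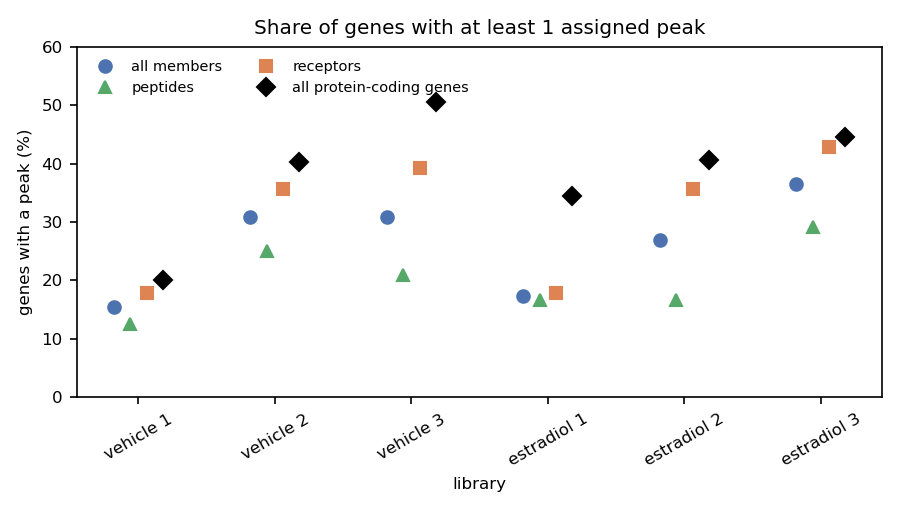
The vertical axis gives the percentage of genes with at least 1 assigned peak and the horizontal axis the library, for all 52 listed genes (circles), the 24 peptide genes (triangles), the 28 receptor genes (squares) and all 21887 protein-coding genes (diamonds). In each library the diamond lies highest and the triangle lowest.

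No listed gene had a peak in all 3 estradiol libraries and none in the vehicle libraries, a pattern that 0.356% of all genes show. The reverse pattern was likewise found at 0 of 52 genes, against 0.146% of all genes. A peak in more estradiol than vehicle libraries was found at 9 of 52 genes (17.3%, against 21.2% of all genes), and in more vehicle than estradiol libraries at 10 (19.2%, against 13.9%). The libraries differed by at least 2 in favour of estradiol at Trh, Nts, Tacr1 and Oxtr, 4 of 52 against 3.71% of all genes, and in favour of vehicle at Vipr2, 1 of 52 against 2.33%. At the stricter threshold (−log10 q of at least 3), with lists of equal length and with at least 5 fragments, Trh kept a difference of 2 libraries. Nts and Tacr1 fell to 1, 0 and 1 under those settings, Oxtr had 2, 1 and 1, and Vipr2 had 0 under each. Genes with a peak in all 6 libraries were Pnoc, Oprm1, Oprl1 and Adcyap1r1, 4 of 52 against 14.6% of all genes. At 21 of 52 genes, against 38.3% of all genes, no library listed a peak. A single gene cannot pass a test with 3 libraries a group, so these are counts beside the background and no more.

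**Figure D2:**
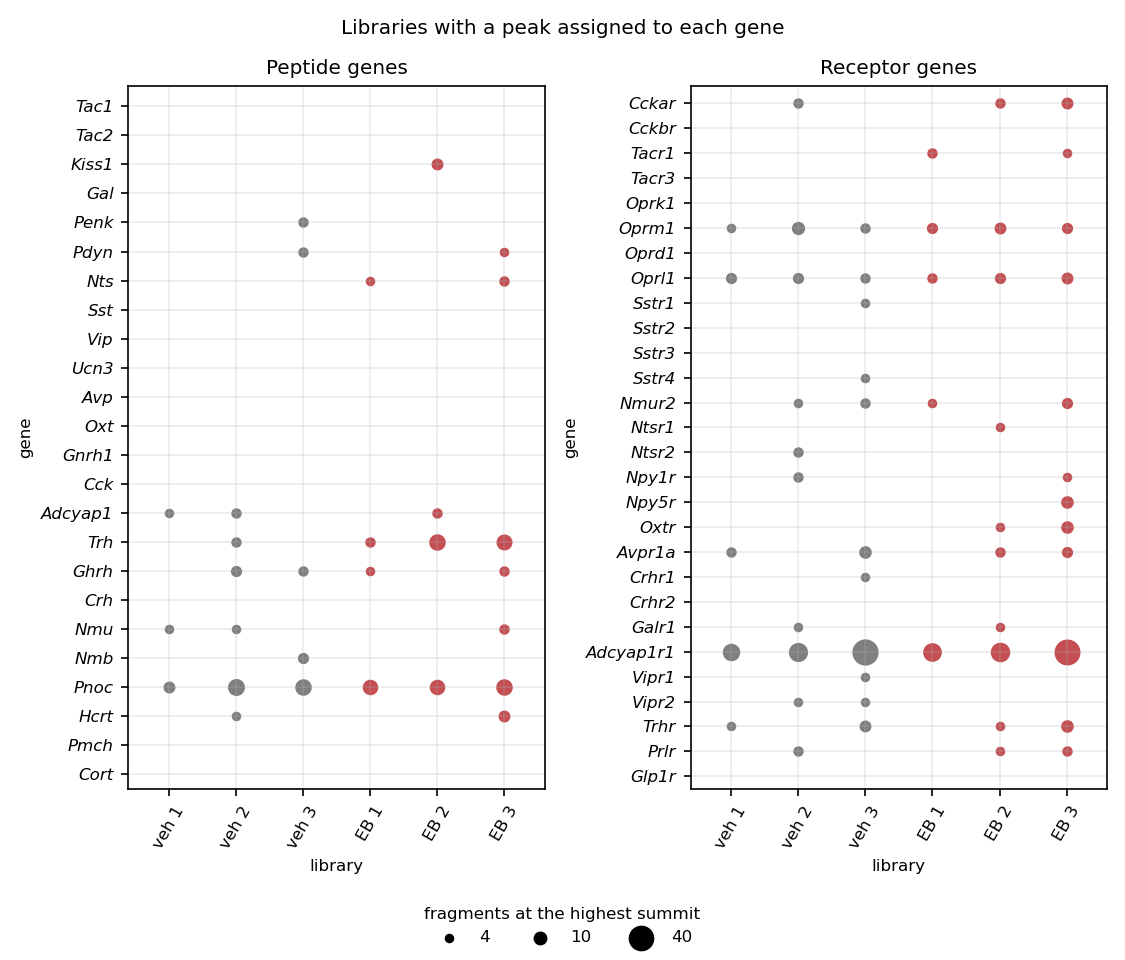
Each row is a gene and each column a library (veh, vehicle in grey; EB, estradiol benzoate in red), and the area of a dot is proportional to the number of fragments at the highest assigned summit. Adcyap1r1 holds the largest dot in each of the 6 libraries and Pnoc has a dot in each. Trh has its large dots in estradiol libraries 2 and 3, and 21 rows are empty.

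Among the peptide precursors, the thyrotropin-releasing hormone gene Trh had a region that was listed in each estradiol library and in no vehicle library. TRH drives the pituitary-thyroid axis and is made in many hypothalamic neurons. The region lay on chromosome 6 at 92294168 to 92294356, 49.5 kb upstream of Trh and within the noncoding gene Gm30688, and the next protein-coding genes were Prickle2 at 76.5 kb and Rbsn at 79.3 kb. Estradiol replicates 1, 2 and 3 listed it with 5, 15 and 14 summit fragments (−log10 q 4.02, 16.7 and 15.2), and no vehicle library did. Within their own lists these peaks ranked at the 43.9, 93.7 and 92.1 percentile, so the peak of replicate 1 was near the middle of its list and those of replicates 2 and 3 near the top. Nearer to Trh, at 24.5 kb, vehicle replicate 2 listed another peak (−log10 q 4.36, 5 fragments), which is why Trh counts 3 estradiol libraries and 1 vehicle library as a gene. Regions held in every estradiol and no vehicle library make up 0.737% of all regions, and 1.09% of all genes have one assigned, against 1 of 52 here. The reverse was found at 0 of 79 regions and 0 of 52 genes, against 0.112% of all regions and 0.201% of all genes. With lists of equal length, or with a peak required to span at least 50% of the merged region, the Trh region no longer met the pattern and 0 remained.

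Pnoc, which encodes the opioid-like peptide nociceptin, held a constant region inside its span on chromosome 14 at 65404183 to 65404379. The −log10 q was 5.09, 17.2 and 16.0 in vehicle replicates 1, 2 and 3 and 14.1, 13.8 and 14.3 in the estradiol replicates, from 7, 16 and 15 against 13, 13 and 15 fragments. Vehicle replicate 1, the shortest list, was the lowest of all 6, and through it the ranges of the groups overlapped. The −log10 q of the other vehicle libraries lay above those of the estradiol libraries, while the fragment counts met at 15. A second Pnoc region at 65416945 to 65417005 was listed in vehicle replicates 2 and 3 and estradiol replicate 2 with 4 to 6 fragments. A further one, 5.99 kb beyond the span, was listed in estradiol replicates 2 and 3 with 6 fragments each. The enkephalin precursor Penk had peaks in vehicle replicate 3 alone, at 1.46 and 77.9 kb, with 5 and 4 fragments. Pdyn, the dynorphin precursor, had 1 region, 11.4 kb away, listed in replicate 3 of both groups with 5 fragments in vehicle and 4 in estradiol.

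At Nts, the neurotensin precursor, the peaks of estradiol replicates 1 and 3 lay at different places. The peak of replicate 1 was 36.6 kb downstream (−log10 q 2.48, 4 fragments) and that of replicate 3 was 1.51 kb upstream (3.29, 5 fragments). Nmu, which encodes neuromedin U, a peptide that restrains feeding, had a single region 77.7 kb away. It was listed in vehicle replicates 1 and 2 and estradiol replicate 3 with 4, 4 and 5 fragments. Nmb, the neuromedin B precursor, had a peak in vehicle replicate 3 alone (5.05 kb, 6 fragments).

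Kiss1, the kisspeptin gene through which estrogen feeds back on GnRH neurons, had peaks in estradiol replicate 2 alone. They lay inside the span and 4.43 kb beyond it, with −log10 q of 6.31 and 6.01 and 7 and 6 fragments. The peak inside the span also lay within 1000 bp of an end of another protein-coding gene. Ghrh, for growth hormone-releasing hormone, had 4 regions in or near its span, each with 4 to 6 fragments, listed in 2 vehicle and 2 estradiol libraries. Adcyap1, which encodes PACAP, had 3 regions of 4 or 5 fragments, each in a different library, vehicle 1, vehicle 2 and estradiol 2. Hcrt, the orexin precursor, had a peak of vehicle replicate 2 just downstream of its short span (4 fragments) and one of estradiol replicate 3 inside it (7 fragments).

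The remaining 13 peptide genes had no listed peak. They are Tac1 and Tac2 of the tachykinins, Gal, Sst and Cort, Vip, the stress peptides Crh and Ucn3, Avp and Oxt, Gnrh1, Cck and Pmch. The stretch within which a peak could be assigned ranged from 4.71 to 306 kb over the 21 listed genes without a peak (median 56.8 kb) and from 3.57 to 380 kb over the 31 with one (median 93 kb).

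Among the receptors, Adcyap1r1, the PACAP receptor gene, held more regions than any other listed gene and the highest peaks of the list. Its 8 regions spread from 28.2 kb upstream to 18.9 kb downstream. The highest, on chromosome 6 at 55519922 to 55520122, lay 18.5 kb downstream of the gene. Its −log10 q was 16.3, 21.8 and 47.8 in vehicle replicates 1, 2 and 3 and 19.3, 25.6 and 45.1 in the estradiol replicates. The fragments were 17, 21 and 42 against 20, 22 and 41, so the values of the groups overlapped and replicate 3 was highest in both. In each list this peak ranked at or above the 96.3 percentile. The neighbouring region at 55520342 to 55520464 was listed in all libraries but vehicle replicate 1, with 14 and 20 fragments in vehicle replicates 2 and 3 and 16, 10 and 21 in the estradiol replicates.

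A region inside Adcyap1r1, at 55458297 to 55458369, was listed in each vehicle library with 7, 6 and 14 fragments. Of the estradiol libraries, replicate 3 listed it with 12 fragments. Its −log10 q was 3.75, 3.79 and 12.6 in vehicle and 10.0 in estradiol replicate 3, so both libraries of replicate 3 were the high ones. The remaining 5 regions of the gene held 5 or 6 fragments. Of the related receptors, Vipr1 had peaks in vehicle replicate 3 alone and Vipr2 in vehicle replicates 2 and 3. The 2 Vipr2 peaks lay apart, inside the gene and 26.2 kb away, with 4 fragments each.

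**Figure D3:**
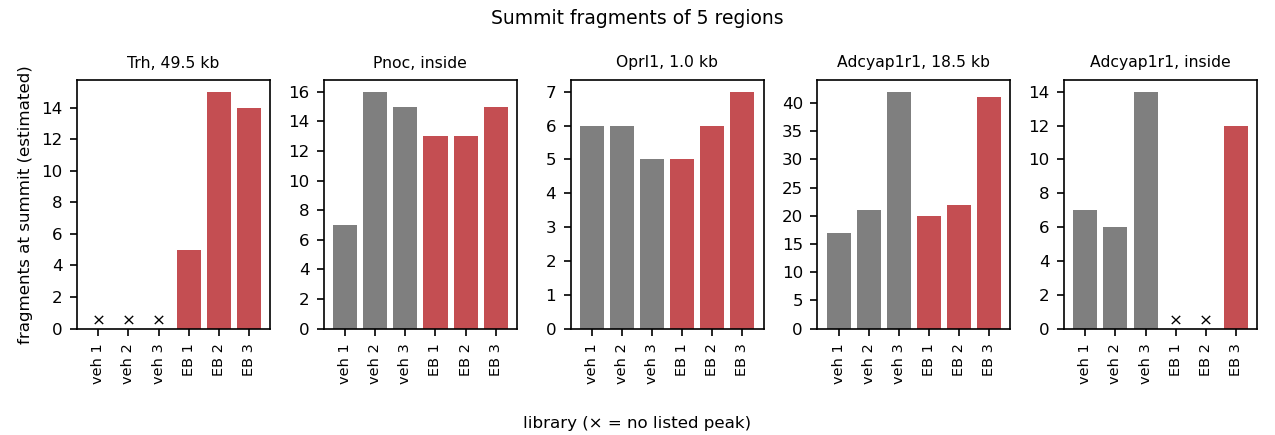
Bars give the estimated number of fragments at the summit in each library (veh, vehicle; EB, estradiol benzoate), 1 panel per region with its own vertical scale starting at 0, and a cross marks a library whose list holds no peak there. The Trh region has bars in the 3 estradiol libraries, with 5, 15 and 14 fragments, and the Pnoc, Oprl1 and downstream Adcyap1r1 regions have bars in all 6.

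The opioid receptors differed among themselves. Oprl1, the nociceptin receptor gene, had a single region, 0.965 kb upstream of its span on chromosome 2 at 181713860 to 181714035, and all 6 libraries listed it. Its fragments were 6, 6 and 5 in vehicle and 5, 6 and 7 in estradiol, with −log10 q of 3.99, 3.85 and 2.37 against 3.52, 4.02 and 4.81. Oprl1 and its ligand gene Pnoc each held a region in every library, a low one and a high one, and in neither did the groups separate. Such a region is assigned to 13.3% of all genes, so the pair is a description and no more. Oprm1, the µ opioid receptor gene, counted a peak in all 6 libraries through 7 scattered regions, none of which was held by more than 4. The most widely held lay 52.8 kb upstream, with 9 and 4 fragments in vehicle replicates 2 and 3 and 6 and 6 in estradiol replicates 1 and 3. Of the Oprm1 regions, 4 lay where its span overlaps that of Ipcef1, and they cannot be given to either gene. Oprk1 and Oprd1, for the κ and δ receptors, had none.

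Tacr1 and Oxtr had peaks in estradiol libraries only, each at a place that no other library listed. Tacr1, the substance P receptor gene, had a peak of estradiol replicate 1 at 0.155 kb from its upstream end (−log10 q 4.02, 5 fragments) and one of replicate 3 at 95.3 kb (2.48, 4 fragments). Oxtr had a peak of estradiol replicate 3 just beyond its upstream end (0.023 kb, −log10 q 7.14, 8 fragments) and another at 36.6 kb (4.35, 6 fragments). Estradiol replicate 2 had an Oxtr peak elsewhere, at 18.8 kb (3.29, 4 fragments). At the vasopressin receptor gene Avpr1a, a region 99.8 kb away, just inside the 100 kb limit, was held by vehicle replicate 3 and estradiol replicates 2 and 3 with 8, 5 and 6 fragments. Vehicle replicate 1 listed another Avpr1a peak at 35.1 kb (5 fragments) and vehicle replicate 3 one at 91.1 kb (4 fragments).

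Among feeding-related receptors, Npy1r had single peaks of vehicle replicate 2 and estradiol replicate 3, 53.0 and 59.4 kb away, with 5 and 4 fragments. The adjacent Npy5r had a peak of estradiol replicate 3 inside its span with 8 fragments. Cckar, for the cholecystokinin A receptor, had a region 4.15 kb away in estradiol replicates 2 and 3 (5 and 7 fragments) and 2 peaks of vehicle replicate 2. Nmur2, the neuromedin U receptor gene, had 6 regions of 4 to 6 fragments over 2 vehicle and 2 estradiol libraries. Prlr, for the prolactin receptor, had 4 regions inside its long span, each listed in 1 library with 4 or 5 fragments.

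Trhr, the receptor for TRH, had a region near its end in vehicle replicates 1 and 3 (4 and 7 fragments) and another, 5.23 kb away, in estradiol replicates 2 and 3 (4 fragments each). A peak of 8 fragments 38.9 kb away was listed in estradiol replicate 3 alone, and one of 4 fragments 19.8 kb away in vehicle replicate 3 alone. Galr1 had a peak of 4 fragments in replicate 2 of each group, at 2 different places. The genes Sstr1, Sstr4, Crhr1, Ntsr1 and Ntsr2 each had peaks in 1 library, of 4 or 5 fragments. The Ntsr2 region also lies in Lpin1 and cannot be given to either gene. The remaining 8 receptor genes, Cckbr, Tacr3, Oprk1, Oprd1, Sstr2, Sstr3, Crhr2 and Glp1r, had none. Over the families, 126 peaks were assigned to the list, with a region counted again in each library that listed it. The 7 opioid genes held 33 peaks in 14 regions, and the 6 VIP, PACAP and GHRH genes 35 in 19 regions. Adcyap1r1 held 2, 3 and 5 of the latter peaks in the vehicle and 3, 2 and 8 in the estradiol libraries. The stretch of Oprm1 was 380 kb, against a median of 78.8 kb for the listed genes, and the counts are not scaled to length.

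Merging touching peaks of the 6 lists gave 79 regions at the listed genes, of which 56 (70.9%) were held by 1 library, against 58.9% of all regions. Regions in all 6 libraries numbered 3 (3.8%, against 7.27% of all regions). Within 1000 bp of the end of a protein-coding gene lay 15 regions (19%, against 24.2%). A further 21 (26.6%, against 36.8%) lay inside genes and 43 (54.4%, against 38.9%) outside genes. Of the highest peaks per region and library, 92 of 125 (73.6%) had 4 to 6 fragments, against 55.9% of all peaks. Peaks of 10 or more fragments were found in 5 regions, at Adcyap1r1, Pnoc and Trh.

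**Figure D4:**
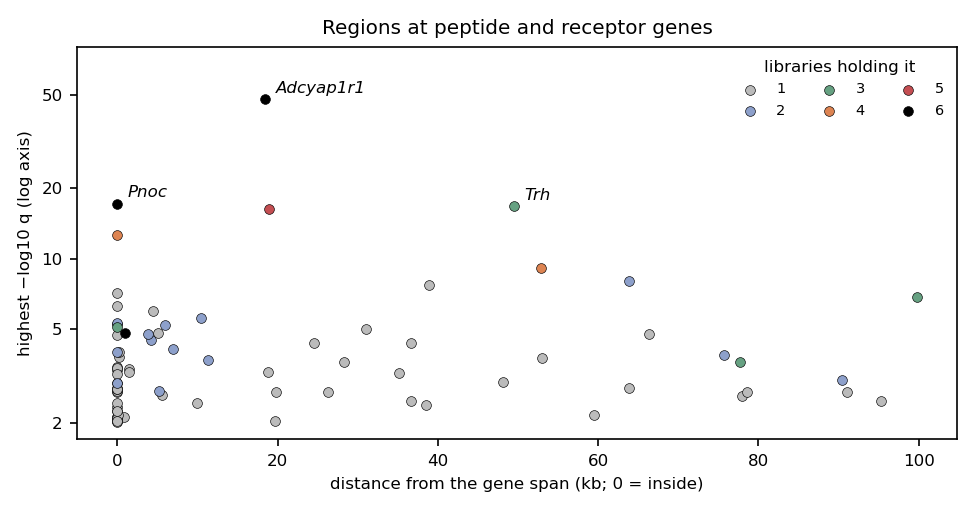
Each point is a region assigned to a listed gene, with its distance from the gene span in kb on the horizontal axis (0 for regions inside) and the highest −log10 q of any library on a logarithmic vertical axis, coloured by the number of libraries that hold it. Most points lie below a −log10 q of 5, and 56 of the 79 are held by 1 library, and the highest are those of Adcyap1r1, Pnoc and Trh.

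Each library's share of peaks at the listed genes was 0.166%, 0.153% and 0.156% in vehicle replicates 1, 2 and 3 and 0.0993%, 0.142% and 0.188% in the estradiol replicates. Estradiol replicate 1 was the lowest and estradiol replicate 3 the highest, with the vehicle values between. The means were 0.158% ± 0.00682 and 0.143% ± 0.0444 (SD, n = 3), a difference of -0.0154 percentage points (exact permutation p = 0.7, adjusted p = 0.8 over 3 tests). It was -0.0391 within replicates 1 and 2 and 0.0322 in replicate 3, and without estradiol replicate 1 it turned to 0.00648. Of those peaks, 2 of 9 (22.2%), 4 of 21 (19.0%) and 4 of 32 (12.5%) lay near a gene end in the vehicle libraries. In the estradiol libraries they were 3 of 11 (27.3%), 1 of 20 (5%) and 3 of 33 (9.09%) (exact permutation p = 0.7). These shares rest on few peaks. The difference of -4.14 percentage points was -4.50 within replicates 1 and 2, -3.41 in replicate 3 and 0.258 without estradiol replicate 2. The same share over all assigned peaks was 36.9% to 54.4% in the 6 libraries.

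Peaks at promoters were rare at the listed genes. RefSeq promoter sequences of the GRCm38.p6 assembly, from 250 bases before to 50 after a start site, were at hand for 43 of the 52 genes, and 2 of the 43 (4.65%) had a peak in that window in any library. Over all protein-coding genes with such a sequence the share was 36.5%. By library it was 0% to 2.33% for the listed genes and 13.1% to 30.6% for all genes. Both peaks came from vehicle libraries, Adcyap1 in replicate 2 (5 fragments) and Vipr1 in replicate 3 (4 fragments). Within 1000 bp of a start site the counts were 10 of 43 (23.3%, against 41.6% of all genes). Within 1000 bp of either end of the gene's own span, 12 of 52 listed genes (9 receptors, 3 peptides) had a peak, against 37.7% of all genes, and 0 had one in all 6 libraries, against 9.39%.

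The Adcyap1 peak covered 93198943 to 93198982 on chromosome 17, inside the annotated gene span. The 250 bases before the start site are shown for Vipr1, the promoter peak that lies outside the annotated gene, with the 35 bases under the peak in capitals. The stretch is chr9:121642466-121642715 on the plus strand, in RefSeq's GRCm38.p6 sequence (mm10 coordinates).
Vipr1: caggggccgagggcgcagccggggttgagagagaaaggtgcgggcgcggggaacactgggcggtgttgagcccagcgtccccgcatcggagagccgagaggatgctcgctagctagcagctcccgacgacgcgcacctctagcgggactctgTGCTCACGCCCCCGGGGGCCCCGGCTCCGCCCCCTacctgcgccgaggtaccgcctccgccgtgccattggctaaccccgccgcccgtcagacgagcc
The bases under the Vipr1 peak were 85.7% G or C and those under the Adcyap1 peak 45%.

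**Figure D5:**
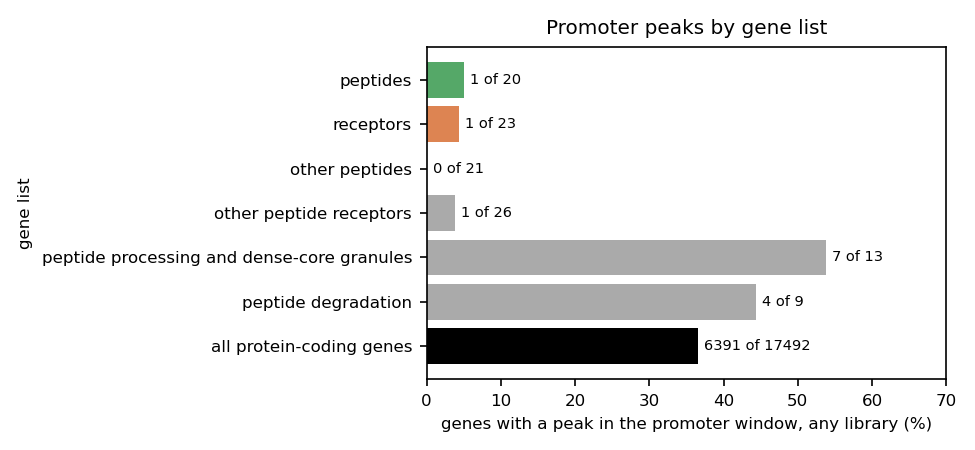
Bars give the percentage of genes in each list with a peak in the promoter window in at least 1 library, among genes with a promoter sequence, with the counts beside them. The peptide and receptor lists, the other peptides and other receptors included, lie between 0% and 5%, and the lists of processing and granule genes and of peptide-degrading genes at 53.8% and 44.4%.

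The ERE, searched as GGTCA and TGACC separated by 3 bases of any kind, was found at 0 of the 43 genes with a promoter sequence, and at 0.0629% over all genes. All motifs were searched on both strands. A single arm, TGACC on either strand, was found at 13 of 43 genes (30.2%) and 42.5% of all genes. The longer arm AGGTCA, which contains the TGACC arm on the other strand, was found at Kiss1, Oxt, Trh, Ghrh, Nmu and Oxtr, 6 of 43 (14%) against 16.7%. The cAMP response element TGACGTCA was found at Sst and Sstr2 (4.65%, against 2.54%), the AP-1 motif TGACTCA at 5 of 43 (11.6%, against 5.4%) and the Sp1 motif GGGCGG at 15 of 43 (34.9%, against 49.2%). A match is a string of letters and not a bound site.

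Trh and Nmu are shown because they are the genes with an AGGTCA match whose 250 upstream bases lie wholly outside the annotated span, and because Trh has the estradiol-only region far upstream. No library listed a peak in either window. Matches to TGACC or AGGTCA on either strand are in capitals. The Trh stretch is chr6:92244651-92244900 and the Nmu stretch chr5:76363778-76364027, both on the minus strand.
Trh: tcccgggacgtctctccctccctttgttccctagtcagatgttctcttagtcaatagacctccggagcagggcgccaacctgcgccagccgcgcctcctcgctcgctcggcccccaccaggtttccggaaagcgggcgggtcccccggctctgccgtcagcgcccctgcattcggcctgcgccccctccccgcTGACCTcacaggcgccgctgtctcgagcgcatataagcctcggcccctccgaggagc
Nmu: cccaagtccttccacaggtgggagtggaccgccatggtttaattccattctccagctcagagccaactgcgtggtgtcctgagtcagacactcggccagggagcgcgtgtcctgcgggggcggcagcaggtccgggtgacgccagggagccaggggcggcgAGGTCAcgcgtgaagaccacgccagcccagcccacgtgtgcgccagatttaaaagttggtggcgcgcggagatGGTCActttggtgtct
The Trh stretch holds 1 arm, 57 bases before the start site (position -57). The Nmu stretch holds 2, at positions -88 and -16, of which the first is part of its AGGTCA match.

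The other genes of peptide signalling were read from lists that do not overlap the 52 genes. Of 27 other peptide precursors 12 (44.4%) and of 37 other peptide receptors 27 (73%) held a peak in at least 1 library, beside 45.8% and 71.4% of the listed peptides and receptors. Promoter peaks were found at 0 of 21 other peptides and 1 of 26 other receptors (Kiss1r). Of 15 genes for peptide processing and dense-core granules, 13 (86.7%) held a peak, against 61.7% of all genes. Their stretch had a median of 189 kb, against 78.8 kb for the listed genes and 45.8 kb for all genes. Of the 13 with a promoter sequence 7 (53.8%) had a promoter peak, against 36.5% of all genes. These were the convertase genes Pcsk1 and Pcsk2, their regulators Pcsk1n and Scg5, the granin Scg2 and the granule membrane genes Ptprn and Ptprn2. Of 10 peptide-degrading enzymes 7 held a peak, with promoter peaks at 4 of 9. Among all 89 of these genes, Npy alone had a peak in 3 of 3 estradiol and 0 of 3 vehicle libraries, against 0.356% of all genes. It was named after its values were seen. The peaks lay at 3 different places, 52.6, 27.4 and 95.0 kb from Npy, with 4, 5 and 5 fragments in estradiol replicates 1, 2 and 3.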

How the data were processed

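ERα CUT&RUN peak lists of 6 libraries (3 vehicle, 3 estradiol) were used, 1 list per library. Tools named without versions or roles are MACS2, Bowtie2, SAMtools, Picard, deepTools and cutadapt, with the build mm10, per the submitters' processing notes. Any control library was not given in the sources used here. The authors' deposited lists give a score (10 times the −log10 q, rounded down), a fold enrichment ratio at the summit, −log10 p and −log10 q values and the summit offset. The names of the peaks in the deposited files carry a q-value of 0.01. These values were used to describe peaks within a list, since no scaling between lists is given.

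Summit fragments were estimated as the whole number that gives the deposited fold (pseudocount 1) and Poisson upper tail, and 100% of peaks in every library gave the deposited −log10 p to within 0.0002. Genes came from RefSeq (GRCm38.p6, the coordinates of mm10), and all 164 list names matched. A gene's stretch is its span plus the flanks up to 100 kb where it is nearest. Regions are merged touching peaks. Groups were compared by two-sided exact permutation of values per library with Benjamini-Hochberg adjustment. Values per library were planned for genes and regions listed in 3 against 0 or in all 6 libraries, genes differing by at least 2 libraries, and the highest summits. Other genes were planned as counts and ranges, and values of many of them are given as well. The members and lists were chosen with earlier results of these data known. Promoter sequences are RefSeq's. Sequence under peaks outside these promoters was not used here. Assignment, merging and the fragment estimate were tested on simulated data. Alternatives were a stricter threshold, lists of equal length, summit positions, other distances, other region rules, each library left out and a replicate block. Intervals and floors were not used, since the lists hold only peaks past a threshold. Python 3.11.15, numpy 2.4.6, pandas 2.3.3 and scipy 1.17.1 were used.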

Additional observations from a re-analysis of the deposited data

Results flagged for a closer look

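The share of each library's peaks at the listed genes moved in opposite directions in the replicates with different label styles. In replicates 1 and 2 both estradiol libraries lay below both vehicle libraries (difference of means -0.0391 percentage points), and in replicate 3 the estradiol library lay above the vehicle library (0.0322). The peptide genes showed the same with -0.0104 and 0.0229, and the receptor genes with -0.0288 and 0.00929. With 1 library a group in replicate 3, the difference between the replicates was not tested.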

How the results depend on the processing

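The exact permutation test could not pass a threshold of 0.05 under any alternative, since 0.1 is the lowest p the design allows. The smallest p was 0.1, and signs turned often. The groups separated fully, with exact permutation p = 0.1, for the share of the list inside spans (-0.0239, from 0.0635% in vehicle to 0.0396% in estradiol) and without estradiol replicate 3 (-0.0379). The receptor share did so under the same settings (-0.0208, from 0.0428% to 0.0219%, and -0.0339). For the number of listed genes with a peak (0.667), the difference was 2.33 at the stricter threshold, 0 with lists of equal length, -2 inside spans only, -0.667 within 20 kb and -0.5 in replicates 1 and 2. Over the left-out libraries it was -2 to 3.17, negative without vehicle replicate 1 (-2) or estradiol replicate 3 (-1.83). For peptide genes (0.333) it was -0.667 within 20 kb, -0.5 in replicates 1 and 2 and -0.667 to 1 over the left-out libraries. For receptor genes (0.333) it was -0.333 with lists of equal length, -2 inside spans and -1.5 to 2.33 over the left-out libraries. The share of the list (-0.0154) turned to 0.0150 at the stricter threshold, 0.00615 with lists of equal length, 0.0210 with at least 5 fragments, 0.0322 in replicate 3 and -0.0379 to 0.00648 over the left-out libraries. The peptide share (0.000721) was -0.00306 inside spans, -0.00118 within 20 kb, -0.00118 within 500 kb, -0.0104 in replicates 1 and 2 and -0.00565 to 0.00644 over the left-out libraries. The receptor share (-0.0161) was 0.00173 at the stricter threshold, 0.00872 with at least 5 fragments, 0.00929 in replicate 3 and -0.0339 to 3.75e-05 over the left-out libraries. The gene-end share (-4.14) turned to 7.53 at the stricter threshold, 2.12 with lists of equal length, 3.50 with at least 5 fragments and, with single libraries left out, to values of -10.9 to 0.258. The cause of these turns was not tested.

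Genes in every estradiol and no vehicle library numbered 0, and 0 to 2 over the left-out libraries, where the rule has fewer libraries to meet (Trh without vehicle replicate 2, Oxtr without estradiol replicate 1, Nts and Tacr1 without estradiol replicate 2). Such regions numbered 1, 0 with lists of equal length or 50% cover, and 1 to 4 over the left-out libraries (4 without estradiol replicate 1, 2 without estradiol replicate 2). The reverse count of genes was 0, and 1 (Vipr2) without vehicle replicate 1. The reverse count of regions was 0, and 1 without vehicle replicate 1 or 2 or estradiol replicate 3. Genes with a promoter peak numbered 2, 0 at the stricter threshold, 0 with lists of equal length, 1 with at least 5 fragments, 10 within 1000 bp of a start site and 1 to 2 over the left-out libraries (1 without vehicle replicate 2 or 3). Genes held in all 6 libraries numbered 4, 2 at the stricter threshold or with lists of equal length, 1 inside spans and 7 within 500 kb, and genes without a peak 21, 41 with lists of equal length and 35 inside spans. Regions held in all 6 libraries numbered 3, and 1 with 50% cover. Under a replicate block (libraries of equal number taken as pairs), a paired sign permutation gave p = 0.75 for the genes with a peak (difference 0.667), p = 0.75 for the share of the list (-0.0154) and p = 0.75 for the gene-end share (-4.14), where 0.25 is the smallest exact p, and it changed no call. Deviations over all genes correlated at 0.12, 0.0425 and 0.0928 for libraries of equal number and -0.0999 to 0.00859 for other pairs. A shared batch was not tested. The minimum of 5 fragments, the window of 1000 bp and the alternatives for promoters and single genes were chosen after seeing the data. Most summits here hold 4 to 6 fragments, which limits the precision of each value. Read depth was not given in the sources used here, and its part in these low counts was not tested.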
